A study of Mus musculus with 5 samples.

Results

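The mitochondrial pathway of cell death was examined in a genome-wide map of the transcription factor Pou4f1 in the embryonic mouse retina, at 9 genes of the Bcl2 family and its partners. Bcl2, Bcl2l1 and Mcl1 were taken as survival genes, and Bax, Bbc3, Pmaip1, Bcl2l11, Apaf1 and Trp53 as death genes. Every region of the deposited table that overlapped the body of one of these genes or lay within 20 kb of it (GENCODE M21, mm10) was included, which gave 5 of the 8038 regions, at 4 of the 9 genes. The rule takes the genes by what their proteins do and uses no signal value, but earlier results of these data were known when it was set.

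Wild-type mouse retinas were taken at E16.5, with no other allele or treatment in the labels, and 4 of them were pooled and dissociated with papain for CUT&Tag. In this assay an antibody directs a transposase to the protein it binds, and the DNA cut around that protein is sequenced. The antibodies, all from rabbit, were anti-Pou4f1 (n = 2 libraries), non-specific IgG as the negative control (n = 2) and an antibody to H3K9AC, an acetylated histone at active promoters and enhancers (n = 1, not analysed here). Nothing in the labels says whether the replicates were separate pools of embryos, so a p-value below measures only the spread between these libraries. Of the 4 columns of values, 2 carry the Pou4f1 replicate numbers, and the others are headed IgG and Negative. The last was taken as the second IgG library, since no other negative control is described, and these are called the IgG column and the negative control column.

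The Bcl2 family decides whether the outer membrane of the mitochondrion stays closed. The survival proteins hold the effector Bax in check, BH3-only proteins such as Bim (Bcl2l11), Puma (Bbc3) and Noxa (Pmaip1) bind and block the survival proteins, and once the membrane opens, cytochrome c drives Apaf1 to assemble the apoptosome and start the caspase cascade, while p53 (Trp53) raises the transcription of several of the death genes. In the developing retina many retinal ganglion cells (RGCs), the neurons whose axons form the optic nerve, die by this route, and Pou4f1 (Brn3a) is a POU-domain factor that a part of the RGCs carries.

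A signal value is taken here as the mean coverage of a region per base, on a scale set by the authors, so levels at different genes can be set side by side. The table lists only regions that were called enriched, and a gene without a region has no value here, which is not a signal of 0. Because regions were chosen by their Pou4f1 signal, an excess over IgG is in part set by that choice. Whole retinas were used, so the signal of the RGCs was diluted by cells without Pou4f1, and fewer cells with a bound site cannot be told apart from less binding per cell. Cell type markers could not be checked, since no transcript was measured. Over all 8038 regions the median signal was 184 and 155 in Pou4f1 replicates 1 and 2, against 4.78 in the IgG column and 7.96 in the negative control column. The read depth of the libraries was not given in any source used here. IgG coverage was sparse, with 46.2% and 43.2% of all regions listed at 0 in the IgG and negative control columns.

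Regions were found at Bcl2l1 and Mcl1 among the survival genes and at Bcl2l11 and Apaf1 among the death genes, and all 4 genes had a region over their own transcription start. Bcl2l11 had an additional region further into the gene. The sequences around these starts are shown because they are the part of each locus that the regions cover, and the start of Bcl2, the gene the family is named for and without a region, is shown beside them. They run from 250 bases before to 50 bases after a start, 5′ to 3′ on the strand of the gene, as RefSeq gives them on GRCm38.p6, the assembly also called mm10. Capitals mark CpG dinucleotides, the sites of DNA methylation that are dense in CpG islands.
Bcl2 (chr1:106714241-106714540, minus strand, no region): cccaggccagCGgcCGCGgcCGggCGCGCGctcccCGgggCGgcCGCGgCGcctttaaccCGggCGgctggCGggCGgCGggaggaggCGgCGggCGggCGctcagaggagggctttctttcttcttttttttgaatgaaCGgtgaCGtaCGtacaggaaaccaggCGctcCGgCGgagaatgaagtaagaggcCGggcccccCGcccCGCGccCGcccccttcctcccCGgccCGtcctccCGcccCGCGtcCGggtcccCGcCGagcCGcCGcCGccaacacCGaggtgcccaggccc
Bcl2l1 (chr2:152831679-152831978, minus strand, 300 of 300 bases in the start region): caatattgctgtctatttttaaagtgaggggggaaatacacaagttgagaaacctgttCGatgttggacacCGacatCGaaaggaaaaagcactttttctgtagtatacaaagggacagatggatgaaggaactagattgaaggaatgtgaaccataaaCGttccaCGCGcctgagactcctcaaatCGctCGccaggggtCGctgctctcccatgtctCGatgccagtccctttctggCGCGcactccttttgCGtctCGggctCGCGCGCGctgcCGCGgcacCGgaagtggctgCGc
Mcl1 (chr3:95658471-95658770, plus strand, 174 of 300 bases in the start region): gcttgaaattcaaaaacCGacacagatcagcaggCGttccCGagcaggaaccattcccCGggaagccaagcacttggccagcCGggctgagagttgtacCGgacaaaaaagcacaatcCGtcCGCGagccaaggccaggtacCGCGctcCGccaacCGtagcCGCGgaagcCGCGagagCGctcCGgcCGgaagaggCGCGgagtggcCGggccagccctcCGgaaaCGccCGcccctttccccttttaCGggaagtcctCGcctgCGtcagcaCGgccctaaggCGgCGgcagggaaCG
Bcl2l11, start of the gene (chr2:128125788-128126087, plus strand, 300 of 300 bases in the start region): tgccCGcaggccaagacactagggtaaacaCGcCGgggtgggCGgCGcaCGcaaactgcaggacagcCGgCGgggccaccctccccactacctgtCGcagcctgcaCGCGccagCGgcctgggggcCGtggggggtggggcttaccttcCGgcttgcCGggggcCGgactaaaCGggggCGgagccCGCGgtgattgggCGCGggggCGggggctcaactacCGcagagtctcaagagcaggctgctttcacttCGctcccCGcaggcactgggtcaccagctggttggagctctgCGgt
Bcl2l11, later start (chr2:128127325-128127624, plus strand, 300 of 300 bases in the downstream region): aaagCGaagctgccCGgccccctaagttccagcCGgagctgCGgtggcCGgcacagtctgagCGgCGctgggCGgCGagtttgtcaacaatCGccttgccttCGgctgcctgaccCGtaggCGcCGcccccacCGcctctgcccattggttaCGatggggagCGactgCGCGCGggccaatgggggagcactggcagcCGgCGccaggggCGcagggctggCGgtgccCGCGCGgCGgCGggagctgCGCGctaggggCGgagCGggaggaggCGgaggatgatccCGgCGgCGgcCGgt
Apaf1 (chr10:91082694-91082993, minus strand, 300 of 300 bases in the start region): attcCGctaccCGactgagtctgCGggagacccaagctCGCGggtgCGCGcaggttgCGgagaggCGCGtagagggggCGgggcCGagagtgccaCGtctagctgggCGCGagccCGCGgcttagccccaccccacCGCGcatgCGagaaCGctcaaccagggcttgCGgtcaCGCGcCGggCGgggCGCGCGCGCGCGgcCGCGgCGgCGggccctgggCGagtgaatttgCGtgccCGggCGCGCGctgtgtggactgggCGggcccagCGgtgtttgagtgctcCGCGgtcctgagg

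All 6 sequences hold more CpG than the median promoter, with 7. The Bcl2l1 sequence holds 22 CpG, the Mcl1 sequence 33, the first and the later Bcl2l11 sequences 27 and 38, and the Apaf1 sequence 46. Among the 32851 promoters of the same length in the RefSeq table, 16.2% touched a region, and these had a median of 25 CpG (interquartile range 18 to 32), against 5 for the promoters that touched none. The other 2 Bcl2l1 promoters of the table, at later starts, hold 14 and 1, and the former touches the start region over 28 bp. Some promoters dense in CpG had no region. The Bcl2 promoter, with 44 CpG, has more of them than 97.8% of all promoters, and the 3 Bbc3 promoters hold 34, 30 and 39, yet neither gene has a region. Bax, with 19 CpG, and Trp53, with 10, had fewer. In all, 8 of the 9 genes matched the table, with 13 promoters. Across their full length the 5 regions had a GC content of 63.2% to 67.7% and 7.05 to 11.2 CpG per 100 bp, where the median region of the table had 59.6% and 5.96, and the median region within 1 kb of a start 62.7% and 7.55.

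Bcl2l1 encodes Bcl-xL, a survival protein of neurons. Its region (chr2:152830940-152832001, 1062 bp) lies over the start of the gene (ENSMUSG00000007659.18, chr2:152780668-152831728, minus strand), with its midpoint 258 bp downstream of that start. It covers 273 bp upstream of the gene, 299 bp of exon without coding sequence and 490 bp of intron. The signal was 194 and 110 in Pou4f1 replicates 1 and 2, against 0 in the IgG column and 13.4 in the negative control column. Neither IgG value reached either Pou4f1 value, and replicate 1 was the higher of the pair. By the mean of both replicates the region ranked 4711 of 8038, with 41.4% of regions lower. The log2 difference between Pou4f1 and IgG was 5.28 (SE 1.59) on the log2(signal + 1) scale, with an adjusted p of 0.0579 in limma, just outside the threshold of 0.05. Without the IgG column the difference was 3.35, and without the negative control column 7.20, so its size rests on how the IgG libraries are treated. Each of these fits has 1 IgG library, which shows no spread of its own, so no adjusted p is given for them.

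Mcl1 encodes a short-lived survival protein that binds Bim, Noxa and Bak. Its region (chr3:95658597-95659989, 1393 bp) lies over the start of the gene (ENSMUSG00000038612.16, chr3:95658788-95663176, plus strand), with its midpoint 505 bp downstream. It is the only one of the 5 that covers coding sequence, with 860 bp of it among 929 bp of exon, beside 191 bp upstream and 273 bp of intron. The signal was 96.0 and 46.5 in Pou4f1, against 8.48 in the IgG column and 20.1 in the negative control column. Although both Pou4f1 values were above both IgG values, Mcl1 had the lowest Pou4f1 signal of the 5 regions in each replicate. The region ranked 7613 of 8038, with 5.29% of all regions and 3.91% of those within 1 kb of a start lower. The mean Pou4f1 signal was 4.98 times the mean of IgG. The log2 difference was 2.26 (SE 0.72) with an adjusted p of 0.0622 in limma, and 6.57% of all regions had a smaller difference. Without the IgG column the log2 difference of Mcl1 was 1.69, and without the negative control column 2.84.

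Bcl2l11 encodes Bim, a BH3-only protein that neurons make when they lose trophic support. It was the only one of the 9 genes with more than 1 region. The start region (chr2:128125311-128126332, 1022 bp) has its midpoint 217 bp upstream of the gene (ENSMUSG00000027381.16, chr2:128126038-128162547, plus strand) and covers 727 bp upstream, 215 bp of exon without coding sequence and 80 bp of intron. Its signal was 194 and 227 in Pou4f1 replicates 1 and 2, against 0 in the IgG column and 41.8 in the negative control column. The groups did not overlap, and 63.1% of all regions were lower by the mean of the Pou4f1 replicates. The libraries of IgG were far apart, since the value in the negative control column was above that of 93.3% of all regions while the other library was at 0. The log2 difference was 5.01 (SE 2.17) with an adjusted p of 0.108 in limma. This difference was 2.30 without the IgG column and 7.72 without the negative control column.

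The downstream region of Bcl2l11 (chr2:128126997-128128073, 1077 bp) lies wholly inside the gene, with 238 bp of exon and 839 bp of intron. Its midpoint is 1497 bp from the start of the gene but 40 bp from the annotated start of a non-coding transcript, and it holds the later RefSeq start whose sequence is shown above. The signal was 279 and 107 in Pou4f1, against 10.9 in the IgG column and 13.2 in the negative control column. Replicate 1 was the highest and replicate 2 the second lowest value of the 5 regions in that replicate. The ratio of replicate 2 to replicate 1, 0.382, was lower in only 6.64% of all regions. The IgG libraries were close to each other, and this was the 1 region of the 5 that passed the test, with a log2 difference of 3.74 (SE 0.67) and an adjusted p of 0.0227 in limma. The call was lost without Pou4f1 replicate 1, where the log2 difference was 3.05. It was kept without replicate 2, where the difference was 4.43. Each of these fits has 1 Pou4f1 library, which shows no spread of its own, so no adjusted p is given for them. Whether the log2 differences of the Bcl2l11 regions differ was not tested.

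Apaf1 encodes the scaffold of the apoptosome. Its region (chr10:91082079-91083558, 1480 bp) is the longest of the 5, and its midpoint lies 48 bp upstream of the start of the gene (ENSMUSG00000019979.12, chr10:90989311-91082770, minus strand). It covers 788 bp upstream of Apaf1, 588 bp of exon without coding sequence and 104 bp of intron. The start of Ikbip, a neighbouring gene, also lies within 1 kb of it, so the region cannot be assigned to Apaf1 alone. The signal was 243 and 267 in Pou4f1, against 0 in the IgG column and 66.0 in the negative control column. Apaf1 had the highest mean Pou4f1 signal of the 5 regions, 255, and ranked 2112 of 8038, with 73.7% of regions lower. It also had the highest value of the 5 in the negative control column, above that of 97.1% of all regions. Only 29 regions of the table were listed at 0 in the IgG column and had a value this high in the other. The log2 difference was 4.96 (SE 2.42) with an adjusted p of 0.135 in limma, the highest of the 5. Without the IgG column the log2 difference of Apaf1 was 1.93, and without the negative control column 7.997. Each of these fits has 1 IgG library, which shows no spread of its own, so no adjusted p is given for them.

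**Figure D1:**
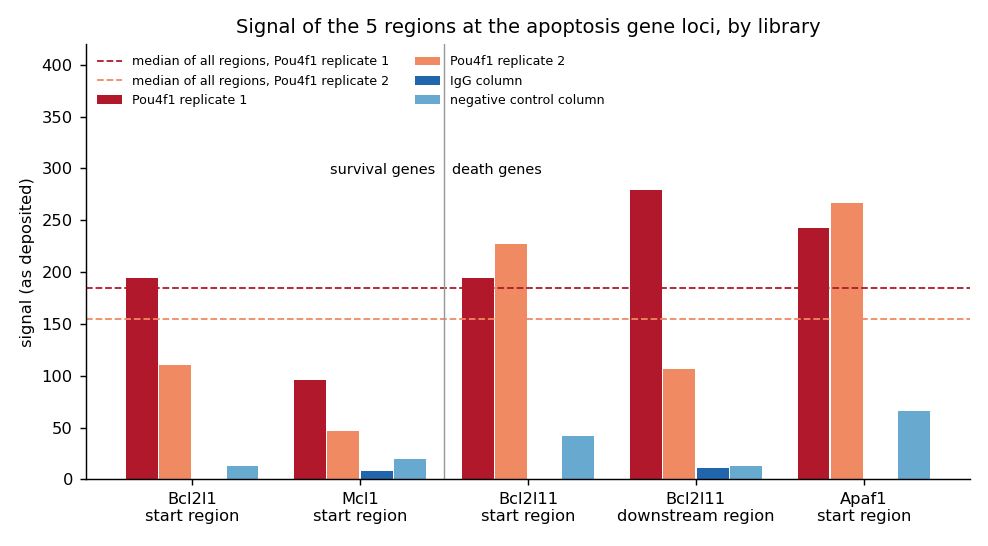
Signal (vertical axis, as deposited) of each of the 5 regions, with a bar for each Pou4f1 replicate and each IgG library and dashed lines at the median of all 8038 regions in each Pou4f1 replicate. Mcl1 is the lowest in both Pou4f1 replicates at 96.0 and 46.5, and the light blue bar of the negative control column is highest at Apaf1 (66.0) and at the Bcl2l11 start region (41.8).

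In all 5 regions the 2 Pou4f1 values exceeded the 2 IgG values, as in 96.5% of all regions, and in 1 of the 5 the difference passed limma's test, where 64.8% of all regions were higher in Pou4f1. Among regions within 1 kb of a transcription start, the kind that all 5 belong to, 62.1% passed. Bcl2l1, the Bcl2l11 start region and Apaf1 were listed at 0 in the IgG column and above 0 in the other, and 0 of these 3 passed, where 39.4% of all regions at 0 in 1 IgG library did. Mcl1 and the Bcl2l11 downstream region were above 0 in both, and 1 of these 2 passed, where 74.1% of such regions did. The log2 differences of the 5, 2.26 to 5.28, had a median of 4.96, beside a median of 5.22 over all regions. At the unadjusted p the Bcl2l1, Mcl1 and Bcl2l11 downstream regions were under 0.05 in limma, with 0.0410, 0.0461 and 0.00928. At least 64.8% of all regions were under it too, since an adjusted p is never below the unadjusted one.

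The IgG values at these loci correspond to few covered bases, except in the negative control column at Apaf1 and the Bcl2l11 start region. The product of signal and length was a whole multiple of a fixed step of the library, as a number of covered bases would give, for 99.98% to 100% of values (within 0.05 of a step). On that scale the Bcl2l1 region held 4587 and 1910 steps in Pou4f1 and 0 and 160 in IgG, and the Apaf1 region 7995 and 6453 in Pou4f1 and 0 and 1099 in IgG. In the IgG column, 887 regions of the table sat at exactly 160 steps, the most common of the low values, and in the negative control column 871 did. The IgG values above 0 of the Bcl2l1 region (160) and of the Bcl2l11 downstream region (154 and 160) lay at or near this amount, and those of the Mcl1 region were 155 and 315. At the Bcl2l11 start region, with 480 steps, and at Apaf1 the negative control column was above it.

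**Figure D2:**
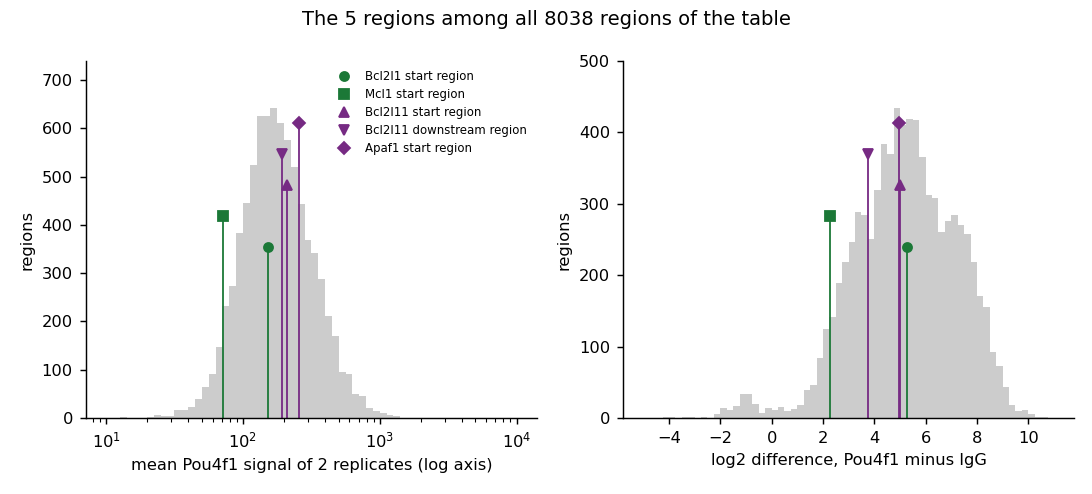
The 5 regions among all 8038, by the mean Pou4f1 signal of 2 replicates (left, log axis) and by the log2 difference between Pou4f1 and IgG (right), with grey bars counting regions and marker heights set only to keep the markers apart. By signal, Mcl1 (71.2) sits in the lower tail and Apaf1 (255) is above 73.7% of regions. By log2 difference Mcl1 (2.26) is the lowest of the 5 and Bcl2l1 (5.28) the highest.

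Survival and death genes were set side by side as a description, since regions are not replicates of a condition. In Pou4f1 replicate 1 the median signal was 145 over the 2 survival gene regions and 243 over the 3 death gene regions, where all regions had 184. In replicate 2 it was 78.2 and 227, where all regions had 155. The survival medians thus lay below, and the death medians above, the median of the table in both replicates, while single regions did not all follow them. The medians of the means of both replicates gave a ratio of death to survival of 1.88, which was 1.67 in replicate 1 and 2.90 in replicate 2 (SD 0.869). By the mean of both replicates each death region (193, 211 and 255) was above each survival region (71.2 and 152). The regions come from only 2 genes in each class, since 2 of the 3 death regions are at Bcl2l11. The third, at Apaf1, also lies near the start of Ikbip. Within a single replicate the classes overlapped. In replicate 1 the Bcl2l1 region and the Bcl2l11 start region were both at 194, and in replicate 2 the Bcl2l1 region, at 110, was above the Bcl2l11 downstream region, at 107.

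The IgG libraries did not order the classes alike. In the negative control column the median was 41.8 over the death regions and 16.7 over the survival regions, and in the IgG column it was 0 and 4.24. The part of this background in the order of the Pou4f1 medians was not tested. On the log2 difference from IgG the median was 3.77 for the survival and 4.96 for the death regions, but the single highest value, 5.28, belonged to Bcl2l1. This order turned without the IgG column, with a median of 2.52 for the survival and 2.30 for the death regions. The replicates were closer to each other at some regions than at others. The ratio of replicate 2 to replicate 1 was 0.566 and 0.484 at Bcl2l1 and Mcl1, and 1.17, 0.382 and 1.10 at the Bcl2l11 start, Bcl2l11 downstream and Apaf1 regions, beside a median of 0.810 over all regions. With 2 libraries a group, an exact permutation test of a single value cannot go below p = 0.333.

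Bcl2, Bax, Bbc3, Pmaip1 and Trp53 had no region within 20 kb. Bcl2, the founding survival gene, spans 176 kb (ENSMUSG00000057329.7, chr1:106538178-106714274, minus strand), and the closest region lay 44.3 kb from it, at the start of Kdsr, an enzyme of sphingolipid synthesis, with a signal of 214 and 138 in Pou4f1 and of 0 and 8.85 in the IgG and negative control columns. Of the 1174 protein-coding genes at least as long, 65.7% had a region within 20 kb. Bax, the effector that opens the mitochondrial membrane (ENSMUSG00000003873.11, chr7:45461697-45466898, minus strand), had its closest region 65.7 kb away, at Snrnp70, a splicing factor, where Pou4f1 gave 246 and 273 and IgG 12.6 and 38.8. Of all protein-coding genes, 58.3% had a nearer region.

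Bbc3 (ENSMUSG00000002083.13, chr7:16308393-16318205, plus strand) was the closest of the 5 to the limit, with a region 21.5 kb away at Ccdc9, where Pou4f1 gave 220 and 173 and IgG 11.8 and 70.6. Pmaip1 (ENSMUSG00000024521.8) had the most distant one, 166 kb away at Ccbe1, where Pou4f1 gave 77.2 and 50.2 and IgG 14.6 and 0. Of protein-coding genes, 75.2% were nearer to one. Trp53 (ENSMUSG00000059552.13, chr11:69580359-69591873, plus strand) had its closest region 40.6 kb away at Fxr2, an RNA-binding protein, with 304 and 201 in Pou4f1 and 0 in both IgG libraries, so that no fold is given. Of these nearest regions those at Kdsr, Snrnp70 and Fxr2 passed limma's test for higher Pou4f1 signal (adjusted p 0.0389, 0.0301 and 0.00222). Those at Ccdc9 and Ccbe1 did not (0.0906 and 0.0964). Of all regions 64.8% passed, and of those within 1 kb of a start 62.1%. The nearest regions named here all lie over the start of another gene.

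The windows of these genes, empty by the rule itself, also hold the starts of Ftl1, Gm45808 and Tulp2, near Bax, and of Atp1b2 and Wrap53, near Trp53. Within the 20 kb, 2 of the 3 survival genes and 2 of the 6 death genes had a region.

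**Figure D3:**
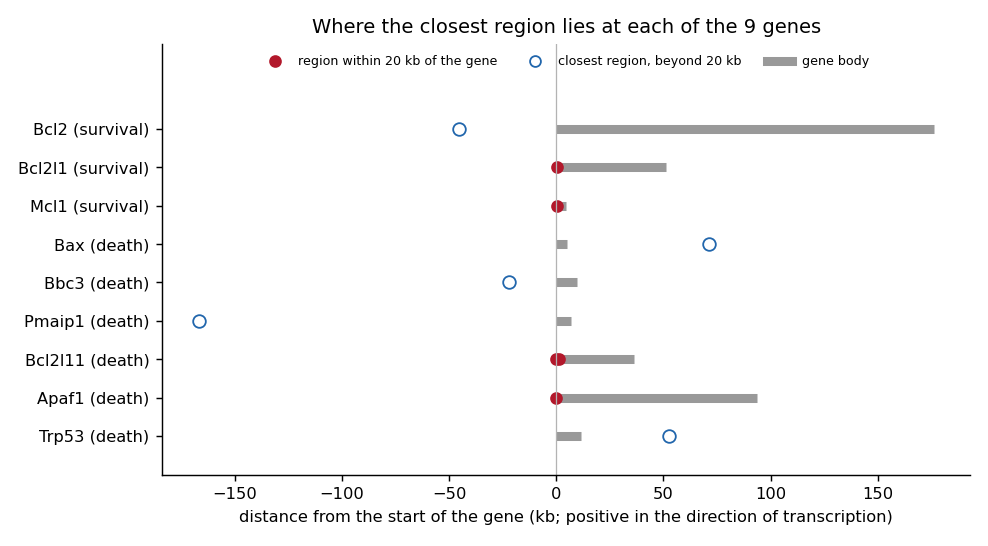
Distance in kb (horizontal axis) from the start of each of the 9 genes to the midpoint of the closest regions, positive in the direction of transcription, with grey bars for the gene bodies, filled circles for regions within 20 kb of the gene and open circles for the closest region beyond it. The filled circles of Bcl2l1, Mcl1, Bcl2l11 and Apaf1 sit on the start, and the distance from the gene to the open circles ranges from 21.5 kb at Bbc3 to 166 kb at Pmaip1.

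The share of genes with a region was read against all 21755 protein-coding genes. Of these, 41.2% had a region within 20 kb and 25.1% had one at their own start, against 4 of the 9 genes, or 44.4%, for both. The count of the 9 was the same with 10 kb and with the gene body alone, where 35.3% and 28.0% of all protein-coding genes had a region. At 50 kb it was 7 of the 9, where 53.6% of protein-coding genes had one. The 6 regions added at that distance lie at Kdsr (Bcl2), Ensa (Mcl1), Inafm1 and Ccdc9 (Bbc3), Slc25a3 (Apaf1) and Fxr2 (Trp53), each within 1 kb of the start of the gene named first. The mitochondrial phosphate carrier Slc25a3 had a Pou4f1 signal of 311 and 189 beside 7.50 and 0, and Ensa had the highest Pou4f1 replicate 1 value of the 6, 684, with 244 in replicate 2 and 0 and 36.8 in IgG.

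None of the 5 regions held a POU motif, spelled as ATNAATAAT or ATNAATTAT with N any base and read on both strands, within its central 200 bp. The motif was present there in 7.06% of the 8028 regions on chromosomes and in 1.13% of regions within 1 kb of a start. Across the whole region it was present in 0 of the 5, against 18.7% of all regions and 5.52% of those near a start. The shorter AATAATT, whose matches can overlap those of the longer motif, and the octamer ATGCAAAT were also found in 0 of the 5 centres, where 6.18% and 0.747% of all regions held them. None of the 13 promoters held the POU motif, where 2.31% of all promoters did. These counts say only that the letters are not in these windows.

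The other 43 apoptosis genes gave a wider view. They comprised the remaining Bcl2 relatives, caspases, proteins released from mitochondria, inhibitors of apoptosis, death receptor adaptors and p53 relatives and regulators. Of these, 21 (48.8%) had a region within 20 kb and 15 (34.9%) had one at their own start. The 21 genes had 25 separate regions, and 15 of the 25 (60.0%) were higher in Pou4f1 in limma's test, beside 64.8% of all regions, while 0 were lower at the adjusted threshold, beside 0.224% of all regions, and 0 had a log2 difference below 0. The count of 15 fell without a Pou4f1 replicate and rose without an IgG library, as the share of all regions that passed did. Such fits leave 1 library in a group. In 24 of the 25 both Pou4f1 values were above both IgG values, beside 96.5% of all regions. The median signal of the 25 was 155 and 119 in Pou4f1 replicates 1 and 2.

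By role the groups are small, and their counts stand beside 25.1% of protein-coding genes with a region at their own start, 41.2% with one within 20 kb and 64.8% of all regions higher in Pou4f1. Proteins that leave the mitochondrion had a region at their own start in 4 of 5 genes (Cycs, Diablo, Htra2 and Endog), and 1 of the 4 regions passed the test. Inhibitors of apoptosis had one near 4 of 5 genes (Birc2, Birc3, Birc5 and Birc6), with Birc2 and Birc3 sharing 1 region, and 3 of 3 regions passed. Of the 9 BH3-only proteins and effectors, 3 had a region (Bad, Bnip3 and Bnip3l), with 3 of 5 regions past the test. Of the 8 genes for caspases and the caspase-activated DNase, 3 had one (Casp2, Casp9 and Dffb), with 2 of 4 regions past the test. Of the 9 Bcl2 relatives, 5 had a region, with 5 of 7 regions past the test. Only Bcl2l13 had one at its own start, and that region did not pass (adjusted p 0.0726 in limma). The regions near Bcl2l2, Bcl2l12 and Bcl2a1b all passed, but they lie within 1 kb of the starts of other genes. These are Pabpn1 and Homez near Bcl2l2, Prmt1 and Gm15545 near Bcl2l12, and Mthfs near Bcl2a1b. Of the 2 death receptor adaptors, Fadd had a region, which passed. Of the 5 p53 relatives, regulators and target, Mdm2, Mdm4, Trp63 and Cdkn1a had none within 20 kb, and the 1 region near Trp73 did not pass. Bak1, the partner of Bax, had no region either.

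Birc6, a large inhibitor of apoptosis, had the highest own-start region of these genes, at 578 and 437 in Pou4f1, against 28.7 and 39.9 in the IgG and negative control columns, with a log2 difference of 3.85 (SE 0.44) and an adjusted p of 0.00877 in limma. Cycs, which encodes the cytochrome c that Apaf1 binds, came next with 410 and 260 against 23.5 and 0 (adjusted p 0.0602). Casp2, an initiator caspase, had 307 and 225 against 0 and 11.3 (adjusted p 0.0389). The lowest 3 were at Bad, Endog and Bcl2l13. A region of Bad, a BH3-only protein, had 76.0 and 27.6 with Pou4f1 against 25.8 and 35.3 in IgG, and it was the 1 of the 25 in which the groups overlapped. Another region at the start of Bad, shared with the start of Gpr137, had 128 and 129 against 6.92 and 0. It passed (adjusted p 0.0350 in limma). Endog, a mitochondrial nuclease, had 110 and 54.0 against 22.3 and 0 (adjusted p 0.124), and Bcl2l13, a Bcl2 relative of the outer mitochondrial membrane, 106 and 87.9 against 0 and 14.5 (adjusted p 0.0726). By the mean of both replicates the Apaf1 region, at 255, lay below Casp2, at 266, and the Mcl1 region, at 71.2, below Endog, at 81.9.

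**Figure D4:**
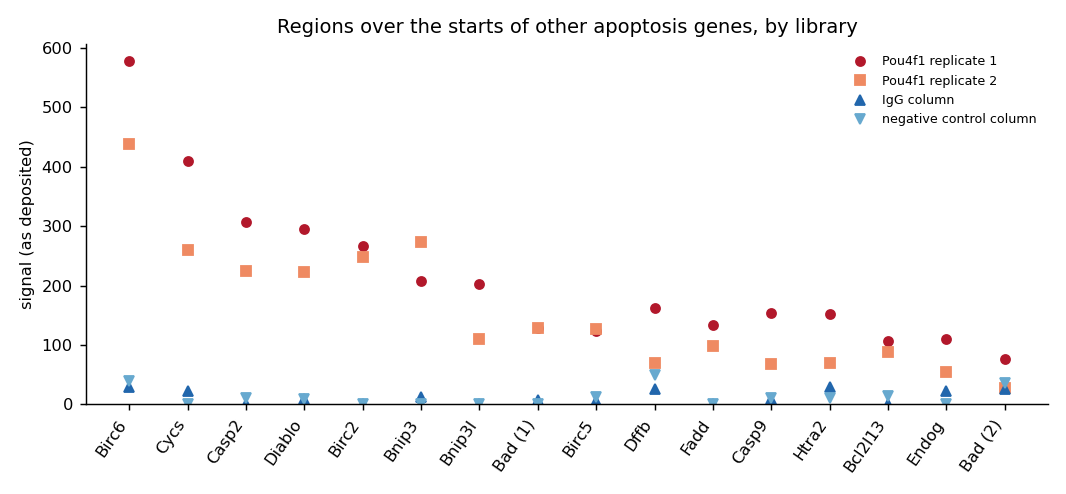
Signal (vertical axis, as deposited) of the 16 regions over the starts of 15 other apoptosis genes, ordered by mean Pou4f1 signal, with a marker for each of the 4 libraries. Birc6 is highest at 578 and 437, and in the lower Bad region, at the right, the Pou4f1 values of 76.0 and 27.6 overlap the IgG values of 25.8 and 35.3.

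The calls at the 5 regions moved with the scaling and with single libraries. The Bcl2l11 downstream region passed in 7 of 11 alternative fits, and the other 4 regions passed in 3 of 11, those without either IgG library and that with a pseudocount of 10. These are the fits in which most of the table passed, with 94.4%, 95.9% and 92.6% of all regions higher in Pou4f1. When each library was divided by its column total, which moved the median log2 difference of all regions by -2.48, 22.7% of all regions and 0 of the 5 passed. In that fit the log2 differences of Mcl1 and of the Bcl2l11 downstream region turned to -1.66 and -0.20, with adjusted p of 0.245 and 0.814 in limma, and those of the other 3 stayed above 0. These 2 regions, the ones above 0 in both IgG libraries, moved by -3.93 and -3.94, further than the median of all regions, and the other 3 by -2.31 to -2.35. The totals were 1.76e+06 and 1.66e+06 in Pou4f1 replicates 1 and 2, 88179 in the IgG column and 120664 in the negative control column. Dividing by them raises IgG values above 0 relative to Pou4f1 and leaves values of 0 at 0.

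**Figure D5:**
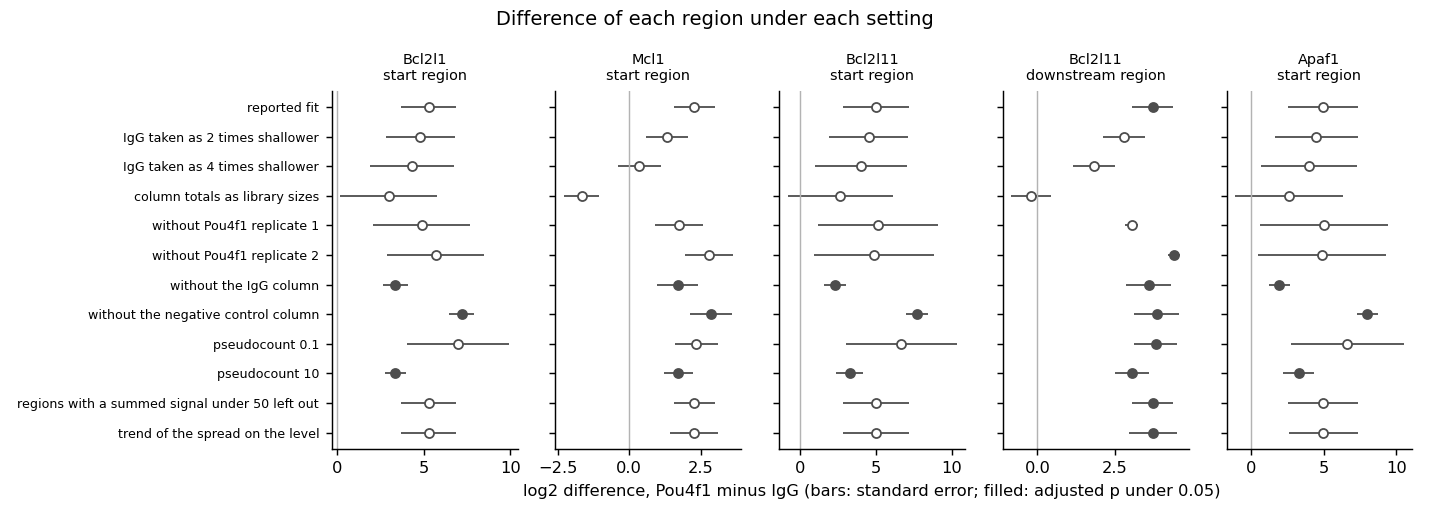
Log2 difference between Pou4f1 and IgG (horizontal axis, with its own scale in each panel) of the 5 regions under the reported fit and 11 alternatives, with bars for 1 standard error and filled points for an adjusted p under 0.05. The Bcl2l11 downstream region is filled in the reported fit and 7 alternatives and the other 4 regions in 3, and with column totals as library sizes Mcl1 (-1.66) and the Bcl2l11 downstream region (-0.20) fall below 0.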

How the data were processed

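Reads (75 nt, paired ends) were trimmed and masked by the authors, mapped to mm10 with Bowtie2 2.4.5, and passed to SEACR, in its relaxed mode, for calling. The authors deposited 1 table with a signal value per region and library. The scaling of the signal, the treatment of duplicates, the pooling of replicates for calling and the read depth were not given in any source used here. The values are no read counts, and the step between them limits the precision of low values.

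Pou4f1 (n = 2) was compared with IgG (n = 2) in R 4.3.3 by limma 3.58.1, fitted to log2(signal + 1), without covariates or filter, two-sided, with p-values adjusted over the 8038 regions by Benjamini and Hochberg, the threshold being 0.05, and the scripts were tested on simulated data. No further scaling was applied. Genes came from GENCODE M21 and sequences from RefSeq on GRCm38.p6, read with samtools 1.23.1 and Python 3.11.15. Region starts are counted from 1.

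The genes, the lists and the tests were chosen with earlier results of these data known. All regions within 20 kb of the 9 genes are named. Of the other apoptosis genes, those of the 3 highest and the 3 lowest own-start regions by mean Pou4f1 signal were to be named with values, as was any region lower in Pou4f1, of which there was none at the adjusted threshold or below a log2 difference of 0. Genes named by role and at 50 kb, and the values of the other region at the start of Bad, were added after their values were seen. An item of the gene list is not reported here by name. Alternatives were the scaling of IgG, column totals, each library left out, pseudocounts of 0.1 and 10, a summed signal minimum of 50, a trend of spread on level, other distances, measures and motifs.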

Additional observations from a re-analysis of the deposited data

How the results depend on the processing

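The count of 1 region higher in Pou4f1 at the 9 loci became 0 with IgG taken as 2 times or 4 times shallower and with column totals, 5 with a pseudocount of 10, 4 of 11 regions within 50 kb, and ranged from 0 to 5 when libraries were left out. The count of 15 at the other apoptosis genes became 9, 5 and 4 with IgG taken as 2 times or 4 times shallower and with column totals, and ranged from 8 to 24 when libraries were left out. It was between 11 and 22 in the other 4 alternatives. The share of all regions higher in Pou4f1 was 36.7% and 26.8% with IgG taken as 2 times and 4 times shallower, and 22.7% with column totals. The Bcl2l11 downstream region had an adjusted p of 0.0604 and 0.178 in limma with IgG taken as 2 times and 4 times shallower. With column totals the log2 differences of Mcl1 (-1.66) and of the Bcl2l11 downstream region (-0.20) reversed, where the median of all regions moved by -2.48. That division raises IgG values above 0 relative to Pou4f1, and no other cause was tested. The order of the median log2 differences, death above survival, turned in 1 of 11 alternatives, that without the IgG column (2.30 and 2.52). The ratio of death to survival regions, 1.88, ranged from 1.67 to 2.90 without a Pou4f1 replicate and was 1.28 within 50 kb. It moved by less than its SD in the alternatives other than those without a replicate. That SD, 0.869, is wide, being taken from the 2 replicate ratios alone. At 50 kb there were 11 regions at 7 genes. The motif count stayed at 0.

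Leaving out 1 IgG library leaves a lone one that is assumed to vary like Pou4f1. In those fits all 5 regions had an SE of 0.73, so their p-values do not measure the spread at a single region. No paired analysis was possible because the IgG columns carry no replicate number. With 2 libraries a group, low IgG coverage limits every call.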
